A study of Homo sapiens with 6 samples.

Results

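Wnt signalling genes were followed in TPC1 cells, a human papillary thyroid cancer line, with and without forced expression of the transcription factor TFCP2L1. The gene set held every row of the count table named WNT or FZD with a number, plus named co-receptors, antagonists and intracellular components of the pathway. It came to 50 of the 21173 genes of the table. Names of antisense or divergent transcripts (2 rows) were left out, and 1 named gene, SFRP1, was not analysed here. The 6 RNA-seq libraries were 3 of TPC1 cells carrying a vector (genotype WT in the labels) and 3 of TPC1 cells overexpressing TFCP2L1. The labels name no promoter, clone or expression system and no drug or added Wnt, and they do not say whether replicates were separate cultures. The p-values rest on the variation among these libraries alone, and that variation may be technical.

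Wnt proteins are secreted lipid-modified ligands. The acyltransferase PORCN attaches the lipid in the endoplasmic reticulum, WLS carries the ligand to the cell surface, and Frizzled receptors bind it together with LRP5 or LRP6, or with ROR and RYK receptors in branches that do not use beta-catenin. In the beta-catenin branch, Dishevelled proteins restrain a complex of AXIN, APC and GSK3B that otherwise marks beta-catenin (CTNNB1) for destruction, and beta-catenin then works with TCF and LEF factors in the nucleus. Altered beta-catenin signalling is known from poorly differentiated thyroid cancer.

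Library totals ran from 37928516 to 38987434 reads. TFCP2L1 itself was checked first: vector replicates 1 to 3 held 0, 0 and 1 of its reads, and TFCP2L1 replicates 1 to 3 held 13578, 13885 and 12333, which fits the labels. Of the thyroid markers, PAX8 was at 133 ± 5.36 FPKM (SD, n = 3), the deposited value per gene length and library depth, in vector cells, while TG was at only 0.0924 ± 0.0298 FPKM. Of the epithelial markers, KRT8 and KRT18 were present and CDH1 (1 and 0 reads over the vector and TFCP2L1 libraries), EPCAM (22 and 6) and KRT19 (1 and 14) were near 0. Among markers of other cell types, the leukocyte gene PTPRC (8 and 3 reads) and the fibroblast genes COL1A2 (2 and 0) and COL3A1 (3 and 0) were near 0. The fibroblast genes COL1A1 (568 and 430 reads), PDGFRB (421 and 382) and LUM (145 and 111) had more. The summed endothelial list ran from 0.126 to 0.191 FPKM in vector and 0.203 to 0.299 FPKM in TFCP2L1 libraries. The summed fibroblast list ran from 21.4 to 24.1 FPKM in vector and 16.6 to 18.8 FPKM in TFCP2L1 libraries, nearly all of it FBLN1, 1 of 4 tested markers called. The summed leukocyte list ran from 38.4 to 45.7 and from 57.1 to 72.6 FPKM, most of it CD68, with CD68 called higher and ITGAX lower of 2 tested. Over all tested genes 11.6% were called. The part of these marker lists in the results below was not tested. Mitochondrially encoded genes took 5.13% to 7.59% of reads, with the highest share of each group in vector replicate 2 (6.72%) and TFCP2L1 replicate 3 (7.59%).

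Of the 50 genes, 39 passed the filter on low counts and were tested. By edgeR's quasi-likelihood test, with Benjamini-Hochberg adjustment over all 14431 tested genes and a threshold of 0.05, 6 of the 39 fell and 2 rose in TFCP2L1 cells, and 31 were not called. PORCN, which makes Wnt ligands competent for secretion, fell by 48.0%, the largest change among the 39 tested genes. The ligand gene WNT5B, the receptor gene FZD1, the secreted glycoprotein gene DKK3, the R-spondin receptor gene LGR4 and the transcription factor gene TCF7 also fell. The R-spondin receptor gene LGR5 and the co-receptor gene LRP5 rose. The 8 called genes were 20.5% of those tested in the set, against 11.6% of all tested genes. Lower calls made up 15.4% of the set against 6.94% of all tested genes, and higher calls 5.13% against 4.63%. For 11 of the 39 genes (28.2%) all vector libraries lay on one side of all TFCP2L1 libraries, against 30.0% of all tested genes. The changes were small on the whole, since the log2 fold change had a median of -0.02 and its absolute value a median of 0.15, against 0.00 and 0.16 over all tested genes. In such bulk libraries, fewer cells with a transcript and less of it in each cell cannot be told apart.

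**Figure D1:**
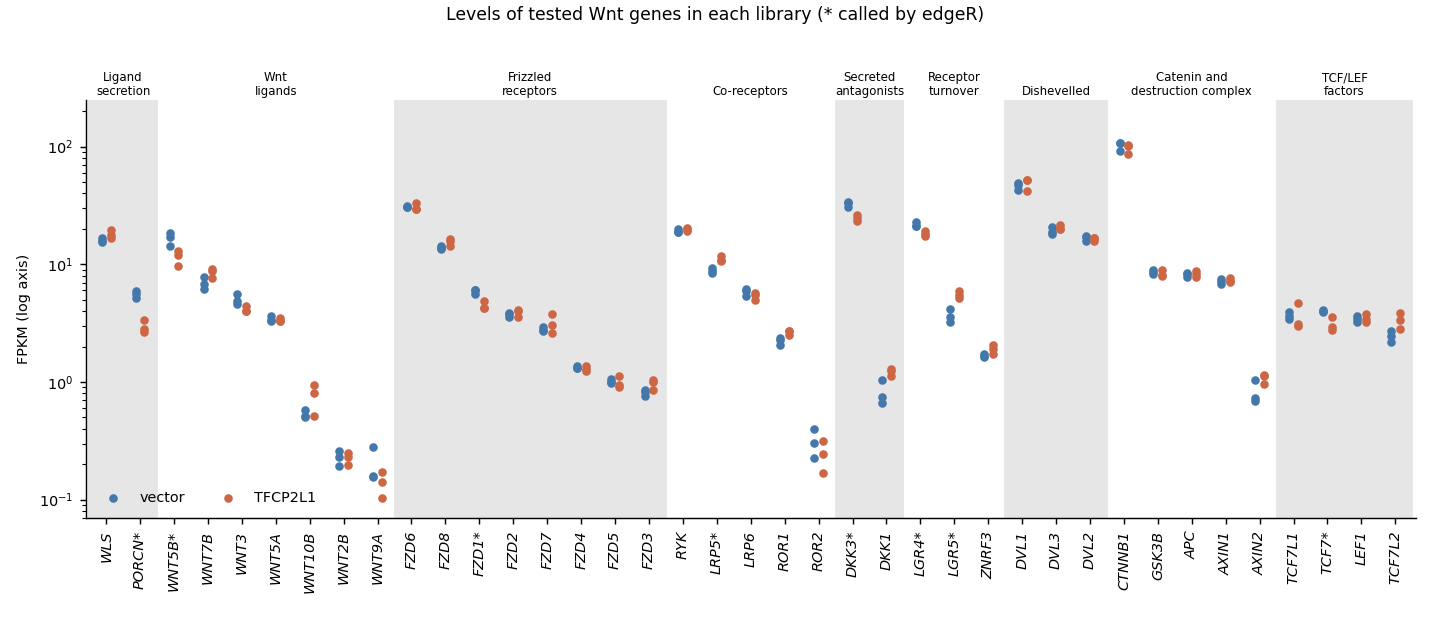
Deposited FPKM (log axis) of the 39 tested Wnt genes in each of 3 vector and 3 TFCP2L1 libraries, grouped by role; an asterisk marks genes called by edgeR. Levels ran from under 1 FPKM for WNT9A to about 100 for CTNNB1 (mean 99.6), and the points of both groups lie close together for most genes.

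A pair of promoter stretches and a set of short sites show sequence upstream of some of the 50 genes and matches to a motif searched there. RefSeq upstream sequence (GRCh38.p14) was matched for 34 of the 50 genes and 6 of the 8 called ones, with LGR5 and DKK3 unmatched. PORCN is shown because it changed most among the tested genes, and LRP5 because it was the only called gene with a match to the repeat searched for. Both stretches run from 250 to 51 bases before the start, on the plus strand, and capitals mark the repeat. The PORCN stretch is at chrX:48508742-48508941 and the LRP5 stretch at chr11:68312341-68312540.
PORCN: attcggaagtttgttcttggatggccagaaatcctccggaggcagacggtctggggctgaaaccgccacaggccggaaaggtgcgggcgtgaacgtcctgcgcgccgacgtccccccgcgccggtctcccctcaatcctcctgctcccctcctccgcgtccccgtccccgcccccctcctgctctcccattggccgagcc
LRP5: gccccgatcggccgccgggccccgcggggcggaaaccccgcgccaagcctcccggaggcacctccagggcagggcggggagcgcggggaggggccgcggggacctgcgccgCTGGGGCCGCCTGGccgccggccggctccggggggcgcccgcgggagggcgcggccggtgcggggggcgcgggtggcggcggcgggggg

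Both are rich in CG dinucleotides, with 30 in the 250 bases before this PORCN start and 43 before the LRP5 start, against a median of 11 over 35116 promoters. PORCN has another RefSeq start downstream, not shown, with 7 in the 250 bases before it. High counts were not particular to these 2 genes, with 49 before DVL1 and 44 before WNT9A, both not called. WNT5B, called lower, had 10 and 7 before its starts. An antisense non-coding gene, AF196972.1, has an exon in the PORCN stretch in GENCODE release 29, but it covers no exon base of PORCN. The motif known for TCF and LEF factors, searched as ATCAAAG on both strands, was in none of the 44 promoters of these genes and in 2.26% of all promoters of the same length. The paired half-sites known for the CP2 family, to which TFCP2L1 belongs, were searched as CCAGNNNNNNCCAG on both strands. They were in promoters of 5 of the 34 genes (14.7%), against 4.07% of 27305 genes with a promoter. The 5 sites are shown with 5 bases on each side, read on the strand that carries CCAG, with CCAG in capitals, in the order WLS (chr1:68232674-68232697), WNT5A (chr3:55487499-55487522), WNT16 (chr7:121328931-121328954), DKK1 (chr10:52314165-52314188) and LRP5 (chr11:68312447-68312470).
WLS: aggcgCCAGcacccgCCAGagctc
WNT5A: tgcgcCCAGgtgcccCCAGttcat
WNT16: aggctCCAGgcgcggCCAGgggga
DKK1: ccctcCCAGcccctcCCAGcgctt
LRP5: ggcggCCAGgcggccCCAGcggcg

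Of these 5 genes only LRP5 was called. A match to such letters is a description of the sequence and shows no binding, and with ATCAAAG in none of these windows the motifs do not overlap there.

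The 2 genes of ligand processing differed in their change. PORCN (ENSG00000102312.21; GRCh38 chromosome X, 48508962 to 48520814, plus strand) was at 13.4, 14.8 and 15.5 CPM (counts scaled to effective library size) in vector replicates 1 to 3. It was at 6.76, 7.27 and 8.69 CPM in TFCP2L1 replicates 1 to 3. Every TFCP2L1 library lay well below every vector library. The log2 fold change was -0.94 ± 0.13 (SE; 95% interval -1.23 to -0.66), and edgeR gave an adjusted p of 0.000181. PORCN stayed called under all 14 alternative settings, with log2 fold changes from -1.05 to -0.74. The cargo receptor gene WLS (chromosome 1) was at 53.9, 52.9 and 57.1 CPM in vector and 65.8, 59.6 and 56.9 CPM in TFCP2L1 cells. Its groups overlapped, and it was not called (edgeR adjusted p = 0.269). Per length, WLS transcripts were more abundant than those of PORCN in both groups, at 15.9 ± 0.695 against 5.57 ± 0.407 FPKM (SD, n = 3) in vector cells and 18.1 ± 1.51 against 2.95 ± 0.369 FPKM in TFCP2L1 cells.

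**Figure D2:**
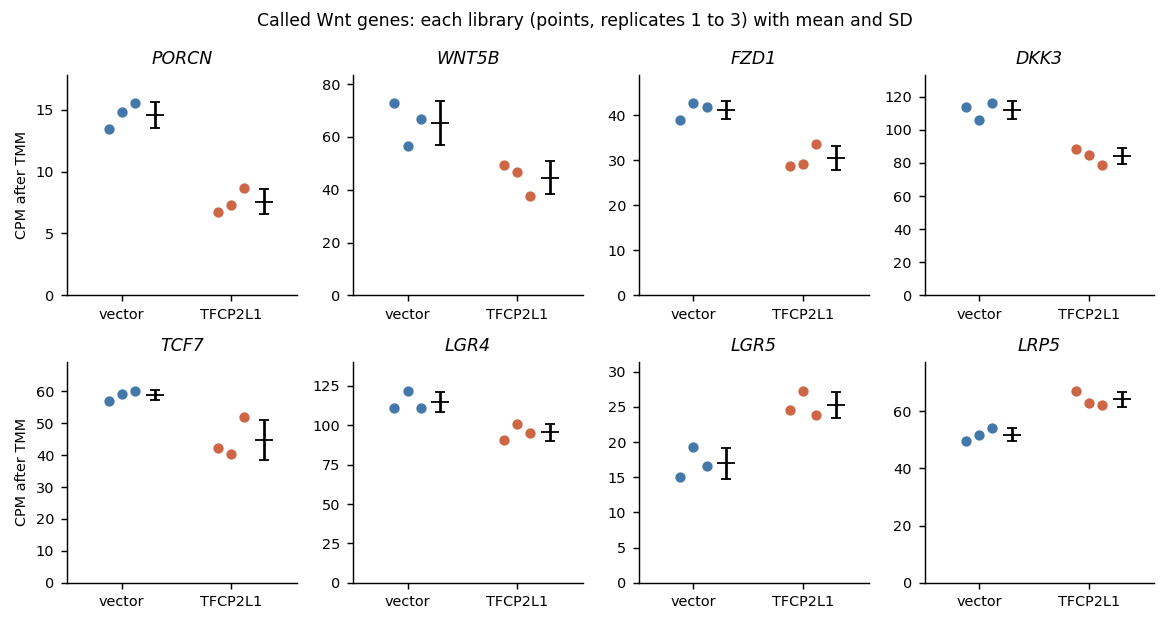
CPM after TMM scaling (from 0) of the 8 called genes in each vector and TFCP2L1 library, with replicates 1 to 3 from left to right and the mean ± SD (n = 3) beside them. The groups do not overlap in any panel; PORCN shows the largest relative fall, from 14.6 to 7.57 CPM.

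Of 13 WNT genes, 7 were tested, and 4 of them made up nearly all ligand transcripts. WNT5B (ENSG00000111186.12; chromosome 12, 1529891 to 1647243, plus strand), a ligand studied mostly in signalling without beta-catenin, was the most abundant per length (16.7 ± 2.17 FPKM in vector cells). It was at 72.7, 56.4 and 66.6 CPM in vector and 49.5, 46.7 and 37.5 CPM in TFCP2L1 libraries. All 3 TFCP2L1 libraries were below the lowest vector library. WNT5B averaged 65.2 ± 8.24 CPM in vector and 44.6 ± 6.24 CPM in TFCP2L1 cells (log2 fold change -0.55 ± 0.11, edgeR adjusted p = 0.00426). It was lowest in each group in the library with the highest mitochondrial share (56.4 CPM in vector replicate 2 and 37.5 CPM in TFCP2L1 replicate 3), and without both libraries its log2 fold change was -0.53 (edgeR adjusted p = 0.000481). On the log2(FPKM + 1) scale the call was just lost (limma adjusted p = 0.0502).

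Its close relative WNT5A was at 3.37, 3.62 and 3.32 FPKM in vector and 3.32, 3.33 and 3.48 FPKM in TFCP2L1 libraries. The groups overlapped and WNT5A was not called (edgeR adjusted p = 0.741). The 95% interval of its fold ran from 0.856 to 1.09. WNT7B, a ligand known to act through beta-catenin in many epithelia, was at 25.8, 32.7 and 28.5 CPM and 37.6, 31.4 and 36.3 CPM. Vector replicate 2 and TFCP2L1 replicate 2 overlapped, and the log2 fold change of 0.28 ± 0.11 was not called (edgeR adjusted p = 0.113). WNT3, another ligand of the beta-catenin branch, was at 15.3, 18.5 and 16.2 CPM in vector and 13.1, 13.1 and 14.6 CPM in TFCP2L1 libraries. Its groups did not overlap, yet the log2 fold change of -0.30 ± 0.12 was not called (edgeR adjusted p = 0.119).

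Added up per length, the WNT transcripts came to 33.8, 32.3 and 33.0 FPKM in vector and 31.0, 27.9 and 27.6 FPKM in TFCP2L1 libraries. WNT5B made up 50.4% ± 5.50 of that sum in vector and 40.2% ± 4.41 in TFCP2L1 cells, and WNT7B 20.9% ± 2.90 and 29.5% ± 2.24. WNT3 held 15.2% ± 1.80 and 14.5% ± 1.53, and WNT5A 10.4% ± 0.689 and 11.7% ± 0.940. The order WNT5B, WNT7B, WNT3, WNT5A was the same in all 6 libraries, but in TFCP2L1 cells WNT5B in replicate 3 (9.72 FPKM) came close to WNT7B in replicate 1 (9.20 FPKM). These shares are a description, with no test.

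**Figure D3:**
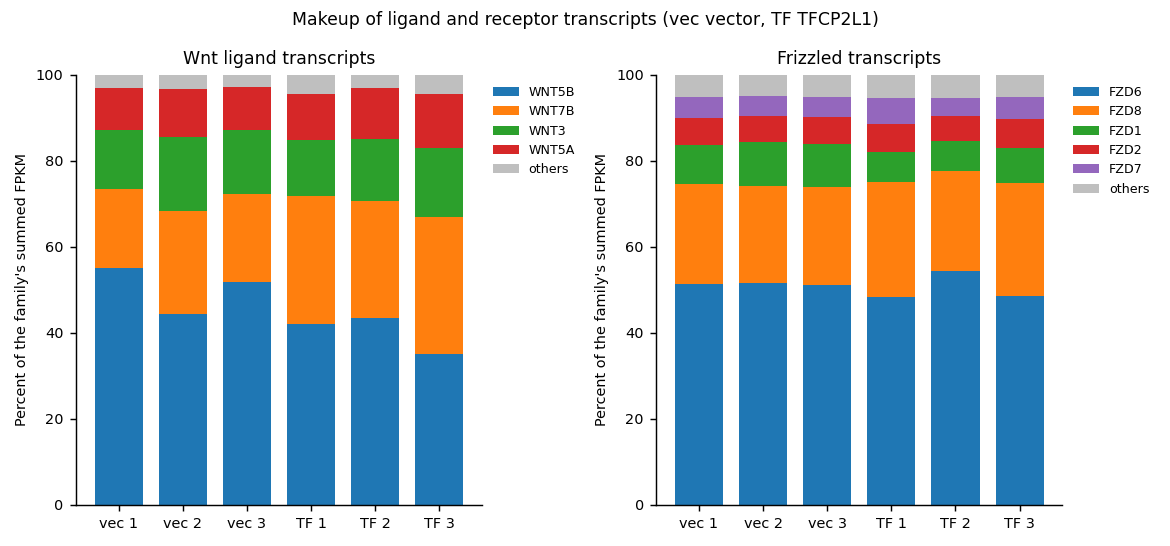
Percent of the summed FPKM of all WNT rows (left) and all FZD rows (right) held by each gene, 1 bar per library; vec stands for vector and TF for TFCP2L1, followed by the replicate number. WNT5B falls from 50.4% to 40.2% of ligand transcripts on average while FZD6 stays near 51% of receptor transcripts (51.2% and 50.4%).

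The other WNT genes were low. WNT10B was at 2.63, 2.34 and 2.27 CPM in vector and 4.12, 2.29 and 3.60 CPM in TFCP2L1 libraries, with TFCP2L1 replicate 2 inside the vector range. It was not called (log2 fold change 0.47 ± 0.24, edgeR adjusted p = 0.248). WNT2B and WNT9A, at 0.228 ± 0.0320 and 0.198 ± 0.0706 FPKM in vector cells, were not called either. An opposite-strand gene, ST7L, covers 21.2% of the exon bases of WNT2B, and strand was not given, so those reads could belong to either gene. WNT8A had 8 reads over the vector libraries and 0 over the TFCP2L1 libraries, too few to give a fold. All 8 came from vector replicates 1 and 2, with 4 reads each. WNT2, WNT4, WNT10A, WNT11 and WNT16 had at most 4 reads in any library. In an edgeR fit with no filter on low counts, 0 of the 11 Wnt genes left out by the filter were called. WNT8A was the only 1 of the 11 with an unadjusted p under 0.05 (0.0366, edgeR adjusted p = 0.204, the lowest of the 11).

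Frizzled receptors, which bind Wnt ligands through a cysteine-rich domain, were called in 1 case. Of 9 FZD genes, 8 were tested, 1 fell and 0 rose, against 6.94% and 4.63% of all tested genes. FZD1 (ENSG00000157240.3; chromosome 7, 91264364 to 91271326, plus strand) was at 38.9, 42.7 and 41.9 CPM in vector and 28.7, 29.3 and 33.6 CPM in TFCP2L1 libraries. The groups were clearly apart, with TFCP2L1 replicate 3 nearest to vector. The log2 fold change was -0.43 ± 0.09 (edgeR adjusted p = 0.00596), and FZD1 was called under all 14 alternatives. FZD1 and FZD2 transcripts share 32 stretches of 50 bases, 0.463% of those of FZD1. A read lying wholly within such a stretch could come from either gene, and how many did so was not tested.

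FZD6, a receptor linked to planar cell polarity, made up 51.2% and 50.4% of the FZD transcripts per length. It was at 31.5, 30.7 and 30.7 FPKM in vector and 29.7, 33.3 and 29.4 FPKM in TFCP2L1 libraries, and the 95% interval of its fold was 0.875 to 1.09. FZD8 was next, at 13.8 ± 0.377 and 15.5 ± 1.16 FPKM, and was not called (edgeR adjusted p = 0.319). FZD2, FZD3, FZD4, FZD5 and FZD7 lay between 0.892 and 3.83 FPKM on average over all libraries, and none was called. PRSS23, on the opposite strand, covers 18.9% of the exon bases of FZD4. FZD10 had 0 and 2 reads. The summed FZD level was 60.5 ± 0.837 FPKM in vector and 61.1 ± 0.588 FPKM in TFCP2L1 cells.

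Among the co-receptors, LRP5 rose and LRP6 was not called. LRP5 (ENSG00000162337.11; chromosome 11, 68312609 to 68449275, plus strand) was at 49.7, 51.6 and 54.2 CPM in vector and 67.2, 63.0 and 62.3 CPM in TFCP2L1 libraries. The groups were apart, with a log2 fold change of 0.31 ± 0.08 (edgeR adjusted p = 0.0172). LRP5 missed the threshold when vector replicate 1 (adjusted p = 0.108), 2 (0.0585) or 3 (0.0505) or TFCP2L1 replicate 1 (0.0728) was left out, while the log2 fold change stayed between 0.27 and 0.34 under the alternatives. The copy LRP5L shares 0.0960% of the 50-base stretches of LRP5. LRP6 was at 61.8, 56.1 and 63.3 CPM and 54.9, 58.5 and 51.1 CPM. Its groups overlapped, and it was not called (edgeR adjusted p = 0.323). Whether the changes of LRP5 and LRP6 differ from each other was not tested.

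The receptors of the branches without beta-catenin were not called. RYK, a receptor related to tyrosine kinases, was the most abundant co-receptor gene per length, at 19.2 ± 0.674 and 19.9 ± 0.671 FPKM. ROR1, a WNT5A receptor found in many tumours, was at 2.06, 2.37 and 2.27 FPKM in vector and 2.72, 2.50 and 2.71 FPKM in TFCP2L1 libraries. The groups did not overlap, but the log2 fold change of 0.22 ± 0.10 missed the threshold (edgeR adjusted p = 0.185). ROR2 was low, at 0.311 ± 0.0859 and 0.243 ± 0.0736 FPKM.

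**Figure D4:**
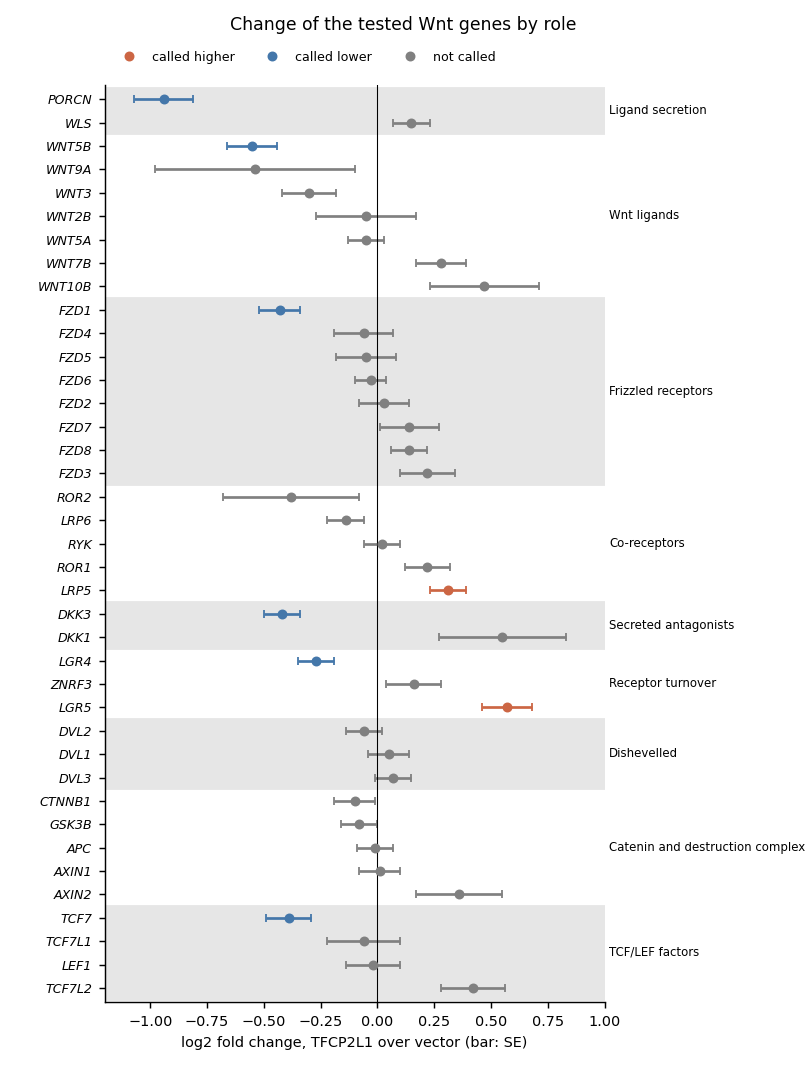
Log2 fold change of TFCP2L1 over vector (edgeR; bars are SE) for the 39 tested Wnt genes, grouped by role and coloured by call. Most points lie within 0.30 of 0; PORCN stands lowest at -0.94 and LGR5 highest at 0.57.

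Of the secreted antagonists, DKK3 was abundant and fell, and DKK1 was low. DKK3 (ENSG00000050165.17; chromosome 11, 11963106 to 12009769, minus strand), a member of the Dickkopf family whose part in Wnt signalling is less settled than that of DKK1, was at 114, 106 and 116 CPM in vector libraries. It was at 88.6, 84.7 and 79.0 CPM in TFCP2L1 libraries. The groups were apart, with a log2 fold change of -0.42 ± 0.08 (edgeR adjusted p = 0.00163), and DKK3 was called under all 14 alternatives. Without vector replicate 2 and TFCP2L1 replicate 3, the libraries with the most mitochondrial reads and the lowest DKK3 of each group, its log2 fold change was -0.41 (adjusted p = 0.00228). DKK1, an inhibitor that blocks LRP5 and LRP6, was at 1.35, 1.91 and 1.21 CPM in vector and 2.20, 2.01 and 2.35 CPM in TFCP2L1 libraries. Every TFCP2L1 library was above every vector library, but with 46 to 90 reads a library the log2 fold change of 0.55 ± 0.28 was not called (edgeR adjusted p = 0.237). An antisense gene, PRKG1-AS1, covers 9.61% of the exon bases of DKK1. DKK2 had 15 and 10 reads over the 2 groups and the Wnt deacylase gene NOTUM 1 and 2, both below the filter.

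R-spondins act through LGR4 and LGR5, which shield Frizzled receptors from the ubiquitin ligases RNF43 and ZNRF3. The R-spondin receptors LGR4 and LGR5 were called in opposite directions. LGR5 (ENSG00000139292.12; chromosome 12, 71439770 to 71586310, plus strand), a stem cell marker in the intestine, was at 3.25, 4.16 and 3.60 FPKM in vector and 5.44, 5.99 and 5.21 FPKM in TFCP2L1 libraries. The lowest TFCP2L1 library stood above the highest vector library. The log2 fold change was 0.57 ± 0.11 (edgeR adjusted p = 0.00367), and LGR5 was called under all 14 alternatives. LGR4 (ENSG00000205213.13; chromosome 11, 27365961 to 27472775, minus strand), its more widely expressed relative, was at 111, 122 and 111 CPM in vector and 90.4, 101 and 95.2 CPM in TFCP2L1 libraries. The groups did not overlap, and LGR4 had a log2 fold change of -0.27 ± 0.08 (SE; edgeR adjusted p = 0.0311). That call did not hold after leaving out vector replicate 1 (0.0855), 2 (0.147) or 3 (0.0899) or TFCP2L1 replicate 1 (0.118), or by limma on FPKM (0.0662 with a pseudocount of 0.1). Without the 2 libraries of highest mitochondrial share it was also lost (0.122).

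Per length, LGR4 transcripts stayed well above those of LGR5, at 21.6 ± 1.01 against 3.67 ± 0.458 FPKM in vector and 18.3 ± 0.865 against 5.55 ± 0.404 FPKM in TFCP2L1 cells. Of the ubiquitin ligases that remove Frizzled receptors, ZNRF3 was at 1.68 ± 0.0568 and 1.90 ± 0.155 FPKM and was not called (edgeR adjusted p = 0.460). RNF43 had 5 reads, all in vector replicate 1, and 0 in TFCP2L1 libraries, too few to give a fold. With no filter on low counts it was not called (edgeR adjusted p = 0.324). In GENCODE release 29, other genes cover 73.9% of the exon bases of RNF43, so its level is uncertain. Of the further list of R-spondins, LGR6 and glypicans, 4 of 8 genes were analysed here, and they summed to between 0.203 and 0.345 FPKM. RSPO3 had 6 and 11 reads over the groups.

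Of the 8 tested genes of the intracellular core, from Dishevelled to the destruction complex and beta-catenin, 0 were called. Over all tested genes 11.6% were called, so 0 among so few genes says little. DVL1, the most abundant of the Dishevelled genes, was at 48.7, 47.4 and 42.5 FPKM in vector and 52.6, 41.6 and 51.7 FPKM in TFCP2L1 libraries, and the 95% interval of its fold was 0.903 to 1.18. DVL3 followed at 19.2 ± 1.30 and 20.5 ± 0.889 FPKM and DVL2 at 16.7 ± 0.884 and 16.3 ± 0.439 FPKM. NKD1, which binds Dishevelled and is a known beta-catenin target, had 1, 0 and 1 read in vector and 7, 4 and 5 reads in TFCP2L1 libraries. Its summed reads, scaled to library totals, had a ratio of 7.92 (exact 95% interval 1.86 to 71.0, counting error only). NKD1 was below the filter; with no filter it was not called (edgeR adjusted p = 0.324), and this ratio was picked out after its reads were seen.

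CTNNB1, which encodes beta-catenin, had the highest level of the whole set, above 96.5% of tested genes on average. It was at 463, 398 and 463 CPM in vector and 430, 440 and 368 CPM in TFCP2L1 libraries. The groups overlapped, and the lowest library of each was the one with the most mitochondrial reads, vector replicate 2 and TFCP2L1 replicate 3. CTNNB1 was not called (edgeR adjusted p = 0.548), with a 95% interval of the fold from 0.822 to 1.06. In the destruction complex, GSK3B was at 8.60 ± 0.303 and 8.31 ± 0.503 FPKM, APC at 8.23 ± 0.329 and 8.31 ± 0.469 FPKM and AXIN1 at 7.15 ± 0.368 and 7.34 ± 0.343 FPKM in vector and TFCP2L1 cells. Their 95% intervals lay between a fold of 0.844 and 1.14, and 0 of the 3 were called.

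AXIN2, the feedback member of the complex and a widely used readout of beta-catenin signalling, was at 5.66, 3.79 and 3.92 CPM in vector and 5.05, 6.07 and 6.08 CPM in TFCP2L1 libraries. Vector replicate 1 lay inside the TFCP2L1 range. The log2 fold change of 0.36 ± 0.19 was not called (edgeR adjusted p = 0.254). In GENCODE release 29, the same-strand gene AC004805.1 covers 25.2% of the exon bases of AXIN2.

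The 4 TCF and LEF genes had similar levels, between 2.90 and 3.64 FPKM on average. Of them 1 fell, against 6.94% of all tested genes. TCF7 (ENSG00000081059.19; chromosome 5, 134114711 to 134151865, plus strand), which encodes TCF1, was at 57.1, 59.0 and 60.2 CPM in vector and 42.2, 40.3 and 51.8 CPM in TFCP2L1 libraries. The groups were apart, with TFCP2L1 replicate 3 nearest to vector. The log2 fold change was -0.39 ± 0.10 (edgeR adjusted p = 0.0127). TCF7 lost its call without vector replicate 3 (0.0715), without TFCP2L1 replicate 1 (0.0712) and by limma on FPKM (0.0826 and 0.0829 with pseudocounts of 0.1 and 1). TCF7L2, the main TCF factor of the adult intestine, had 491, 552 and 443 reads in vector and 571, 695 and 783 reads in TFCP2L1 libraries. Vector replicate 2 and TFCP2L1 replicate 1 met at 14.6 CPM after scaling, and the log2 fold change of 0.42 ± 0.14 just missed the threshold (edgeR adjusted p = 0.0552). TCF7L2 was called in 4 of 14 alternatives. These were DESeq2 (adjusted p = 0.0353) and edgeR with no filter on low counts (0.0119), without vector replicate 2 (0.0397) or without TFCP2L1 replicate 1 (0.0304). It was not called in the rest, such as edgeR without vector replicate 3 (0.232) or TFCP2L1 replicate 3 (0.157). LEF1 was at 3.44 ± 0.195 and 3.46 ± 0.284 FPKM. TCF7L1, often a repressor, was at 3.68 ± 0.243 and 3.59 ± 0.956 FPKM, and its spread in TFCP2L1 cells came from replicate 3 (4.69 FPKM against 2.97 and 3.12).

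**Figure D5:**
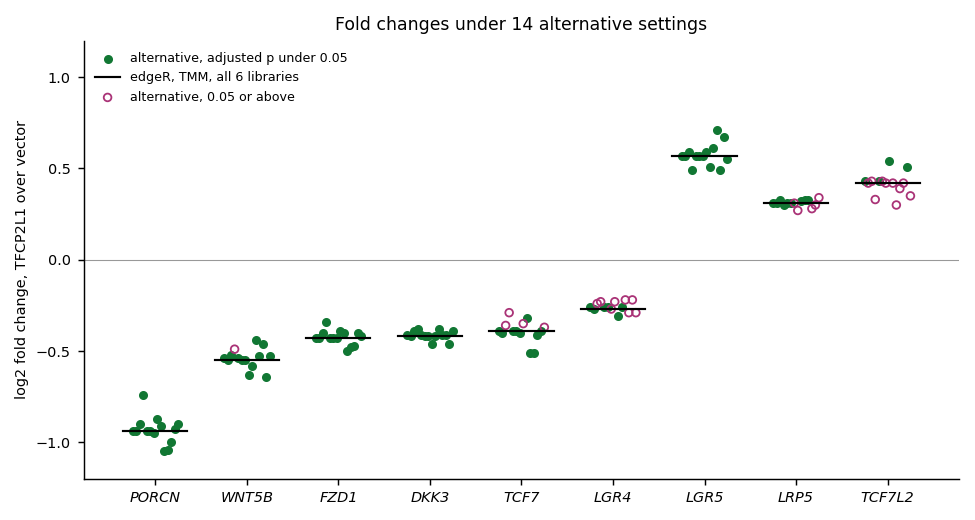
Log2 fold change of the 8 called genes and of TCF7L2 (TFCP2L1 over vector) with all 6 libraries in edgeR (lines) and under 14 alternative settings (points; filled where the adjusted p was under 0.05). No point changes sign; PORCN, FZD1, DKK3 and LGR5 are filled throughout, while LGR4 is filled in 6 of 14.

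Genes that work around these components were read from 9 further lists, 158 genes in all. Of the 117 tested, 8 were higher (6.84%, against 4.63% of all tested genes), 10 were lower (8.55% against 6.94%) and the median log2 fold change was 0.01. In the list of planar polarity genes 2 of 22 fell and 1 rose. The atypical cadherin gene CELSR2 fell from 53.0 ± 3.57 to 34.8 ± 2.41 CPM (edgeR adjusted p = 0.000249), and CELSR3 from 5.15 ± 1.10 to 2.41 ± 0.521 CPM (0.00403). PRICKLE2, a cytoplasmic polarity gene, rose from 31.3 ± 1.39 to 39.1 ± 2.05 CPM (0.0271). That call was lost on leaving out any vector replicate (0.0653 to 0.122) or TFCP2L1 replicate 1 (0.0793) or 3 (0.0530). In the calcium branch list 2 of 14 fell and 1 rose. The phospholipase gene PLCB4 fell from 117 ± 4.39 to 75.3 ± 9.48 CPM (edgeR adjusted p = 0.000138), and the calcineurin genes PPP3CC and PPP3CB had log2 fold changes of -0.38 ± 0.11 (0.0436) and 0.42 ± 0.09 (0.00516). The PPP3CC call was lost without vector replicate 1 (0.246) or 3 (0.110) and without TFCP2L1 replicate 1 (0.134) or 3 (0.0726).

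Among known or proposed beta-catenin targets outside the set, 2 of 19 rose and 2 fell, against 4.63% and 6.94% of all tested genes. This list had no common direction (median log2 fold change 0.08), and it leaves out targets held in the set, such as AXIN2 and NKD1. Called genes of the set, among them LGR5 (higher) and TCF7 (lower), are not in this count either. The receptor gene EPHB2 fell from 28.4 ± 1.57 to 13.7 ± 1.26 CPM (edgeR adjusted p = 5.99e-06) and the protease gene ADAMTS5 from 8.32 ± 0.511 to 4.92 ± 0.704 CPM (0.00449). The transcription factor gene SOX9 rose from 42.6 ± 3.20 to 58.2 ± 5.80 CPM (0.00439). FOSL1, an AP-1 subunit named here after its values were seen, was called higher beside it, at 369 ± 40.8 and 490 ± 81.1 CPM (0.0281), a call that did not hold without vector replicate 1 (0.128) or 3 (0.119).

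In the nuclear list 1 of 21 rose and 1 fell, against 4.63% and 6.94% of all tested genes. SOX7, a factor known to restrain beta-catenin, rose from 10.8 ± 1.72 to 21.9 ± 4.60 CPM (edgeR adjusted p = 0.000401), in all 14 alternatives. The co-repressor gene TLE2 was low, at 2.25 ± 0.575 and 1.03 ± 0.397 CPM; its call (0.0410) held in 6 of 14 and depended on vector replicates 2 (0.162 without it) and 3 (0.106) and on TFCP2L1 replicates 2 (0.105) and 3 (0.0735). Against 4.63% higher and 6.94% lower over all tested genes, 2 of 24 rose and 0 fell in the cytoplasmic list. These were GSK3A, the partner of GSK3B, with a log2 fold change of 0.27 ± 0.08 (0.0347), and CCDC88C, which binds Dishevelled, with 0.35 ± 0.11 (0.0438). GSK3A was called without TFCP2L1 replicate 2 but in none of the other 5 fits that left out 1 library (0.0608 to 0.169), and the same holds for CCDC88C (0.0589 to 0.185).

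The adherens partners of beta-catenin differed among themselves. JUP, which encodes plakoglobin, fell from 40.1 ± 0.636 to 29.2 ± 1.93 CPM (edgeR adjusted p = 0.00276), and CDH3 from 5.72 ± 0.342 to 3.41 ± 0.590 CPM (0.0142), the latter lost without vector replicate 3 (0.0765) or TFCP2L1 replicate 1 (0.0696). CDH2 rose from 16.4 ± 0.703 to 23.1 ± 3.75 CPM (0.0137), a call lost without vector replicate 3 (0.0831) or TFCP2L1 replicate 2 (0.0503). CTNNA1, the alpha-catenin gene, was not called, and CDH1 had 1 read in all. Of the 5 other antagonists tested only IGFBP4 was called, against 11.6% of all tested genes. IGFBP4 is a secreted binding protein that can also block Frizzled receptors. It fell from 280 ± 10.7 to 225 ± 20.3 CPM (0.0172), and not without vector replicate 1 (0.108) or 3 (0.0620). Of 7 genes for trafficking of WLS and Wnt cargo, 0 were called, against 11.6% of all tested genes.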

How the data were processed

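Per the labels' protocols, total RNA of 6 TPC1 samples (3 vector, 3 TFCP2L1) was extracted with TRIzol and made into libraries with a VAHTS Universal RNA-seq kit. The submitters' processing notes name fastp, HISAT2, HTSeq and GRCh38.p13, with no versions or strand setting. The authors deposited raw read counts and FPKM values per gene symbol; the deposited FPKM equal count divided by gene length and library total, within 0.000115%, so they are no second measurement. Each column name carries a group and a replicate number, which gave its sample.

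Counts were tested with edgeR 4.0.16 (R 4.3.3): filterByExpr, TMM scaling, robust quasi-likelihood F-test, two-sided, all 6 libraries, Benjamini-Hochberg over 14431 genes. SE is the log2 fold change divided by the root of F; 95% intervals use the test's degrees of freedom. Levels between genes were compared in FPKM. Alternatives used DESeq2 1.42.0, limma 3.58.1 on log2(FPKM + 1 or 0.1), other scaling and filters, a replicate block and left-out libraries. The comparison was tested on simulated counts. Positions and overlaps come from GENCODE release 29, which matched 50 of 50 genes, and promoters from RefSeq. Named genes were those called, PORCN, and the 2 most abundant per role, and up to 3 called per further list; the values of other genes, such as WNT3, WNT5A, WNT10B, ROR1, AXIN1, AXIN2, APC, GSK3B, TCF7L1, TCF7L2, LEF1 and FOSL1, were added after they were seen. Genes and lists were chosen with earlier results of these data known.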

Additional observations from a re-analysis of the deposited data

How the results depend on the processing

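Of the 8 called Wnt genes, PORCN, FZD1, DKK3 and LGR5 were called under all 14 alternatives, WNT5B in 13, TCF7 in 10, LRP5 in 9 and LGR4 in 6, and none of the 8 changed sign. The number of genes of the set called higher (2 with all libraries) was 1 with a replicate block, 3 by DESeq2 and with no filter, and 1 to 2 when each library was left out in turn. The block ended the calls of LRP5 (adjusted p = 0.0700) and LGR4 (0.0741). The number called lower (6) was 3 by limma on log2(FPKM + 1), 4 with a pseudocount of 0.1, and 4 to 6 without single libraries. Over all genes, 668 higher and 1002 lower became 328 and 649 with the replicate block; leaving out each library gave 298 to 765 higher and 621 to 1106 lower, with the lowest counts without vector replicate 1 (298 and 645) or 3 (313 and 621). Of the other Wnt pathway genes, 8 higher became 5 by limma with either pseudocount, 4 with the block, 5 without both libraries of highest mitochondrial share (an alternative chosen after seeing the data) and 3 to 7 without single libraries; 10 lower became 6 to 12 without single libraries. The cause was not tested. Replicate numbers were not shown to pair the libraries: deviations from the group means of same-numbered libraries correlated at 0.072, -0.161 and -0.124 across genes. Over all tested genes, the median shift of the log2 fold change from the edgeR fit with TMM was at most 0.025 under any alternative. That was by limma on FPKM with a pseudocount of 0.1, and relative log expression scaling of the counts gave 0.002. The 11 Wnt genes below the filter had few reads, and 0 of them were called with no filter. Whether depth limited them was not tested.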
